A study of Mus musculus with 24 samples.

Results

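A set of 8 genes of the wound's provisional matrix was followed out of the 54232 genes counted: Fn1, Tnc, Postn, Spp1, Thbs1, Thbs2, Sparc and Eln. They were found by symbol from the Ensembl gene identifiers of the count tables, and all 8 passed the filter on low counts that left 18978 genes for testing. Expression was measured by RNA sequencing of dorsal wounds from male mice of the strain C57BLKS/J with the genotype Lepr (db/db), whose leptin receptor is defective and which become obese and diabetic. A punch wound of 6 mm through the full skin was made when mice were 16 weeks old. It was dressed with alginate, the dressing was renewed on day 3, and tissue was taken on day 10, at 17.5 weeks. Dressings of the group Ctrl (n = 6) were plain controls. The others carried culture medium that primary macrophages had conditioned: CMC (n = 5) came from M2c cells, CMA (n = 5) from M2a cells, CM1 (n = 4) from M1 cells and CM0 (n = 4) from M0 cells. Every group therefore shares the db/db genotype, the wound and the alginate, and there is no unwounded skin, no wild-type wound and no dressing with unconditioned medium among the samples analysed here. How the macrophages were polarised is not stated in the sources. Libraries held 7267879 to 11985292 counts, and the numbers 1 to 6 within a group are only names. The series' design gives the n of each group as mice, no label ties a library to a numbered animal, and p-values measure the spread between these libraries.

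After injury, a clot of fibrin and plasma fibronectin serves as the first provisional matrix. Fibroblasts and macrophages then add to it and replace it before collagen matures. Fibronectin (Fn1) binds integrins and organises collagen assembly, and elastin (Eln) is the core of the elastic fibres of mature dermis. Tenascin-C (Tnc), periostin (Postn), osteopontin (Spp1), the thrombospondins (Thbs1 and Thbs2) and osteonectin (Sparc) are matricellular proteins, which sit in the matrix and act on cells and on matrix assembly more than they bear load. Several of them are known to be low in resting skin and to appear for a time in granulation tissue.

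The genes lie on 7 chromosomes of the mouse genome GRCm38, by the GENCODE M21 annotation, and all are protein coding. Fn1 (ENSMUSG00000026193) is at chr1:71585520-71653200 on the minus strand and Tnc (ENSMUSG00000028364) at chr4:63959785-64047015 on the minus strand. Postn (ENSMUSG00000027750) is at chr3:54361109-54391037 and Thbs1 (ENSMUSG00000040152) at chr2:118111876-118127133, both on the plus strand. Thbs2 (ENSMUSG00000023885) is at chr17:14665500-14694235 and Sparc (ENSMUSG00000018593) at chr11:55394500-55423183, both on the minus strand. Spp1 (ENSMUSG00000029304, chr5:104435118-104441050, plus strand) and Eln (ENSMUSG00000029675, chr5:134702593-134747323, minus strand) share a chromosome. The libraries do not mark strand, so reads of a gene that overlaps on the opposite strand cannot be told apart. Opposite-strand genes share exonic bases with Fn1, Tnc, Thbs1 and Eln, and the largest of their totals over all libraries was 1125 counts, for 8030451A03Rik at Tnc, beside 347832 counts of Tnc itself.

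The 250 bases before the RefSeq transcription start (build GRCm38.p6) are shown for 4 members, whose RefSeq start lay 0 bases (Tnc), 2 bases (Postn), 7 bases (Spp1) and 27 bases (Thbs2) from the gene start in the GENCODE annotation. They are the members for which a window was available whose RefSeq start lay within 200 bases of that gene start. The choice did not rest on their values in these wounds. Each is read 5′ to 3′ on the strand of its gene, and capitals mark matches to the 6 motifs searched on both strands. The Tnc window is chr4:64047016-64047265 on the minus strand, that of Postn chr3:54360857-54361106 on the plus strand, that of Spp1 chr5:104434861-104435110 on the plus strand, and that of Thbs2 chr17:14694263-14694512 on the minus strand.
Tnc: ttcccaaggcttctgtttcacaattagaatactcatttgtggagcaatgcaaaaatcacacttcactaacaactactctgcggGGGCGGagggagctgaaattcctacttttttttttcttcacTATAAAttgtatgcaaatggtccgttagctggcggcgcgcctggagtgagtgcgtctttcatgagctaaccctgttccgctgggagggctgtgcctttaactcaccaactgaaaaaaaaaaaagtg
Postn: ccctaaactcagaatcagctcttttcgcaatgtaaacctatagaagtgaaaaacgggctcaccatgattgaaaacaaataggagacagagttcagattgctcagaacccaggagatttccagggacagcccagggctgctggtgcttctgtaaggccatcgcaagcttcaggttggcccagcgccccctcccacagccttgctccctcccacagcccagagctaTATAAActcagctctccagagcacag
Spp1: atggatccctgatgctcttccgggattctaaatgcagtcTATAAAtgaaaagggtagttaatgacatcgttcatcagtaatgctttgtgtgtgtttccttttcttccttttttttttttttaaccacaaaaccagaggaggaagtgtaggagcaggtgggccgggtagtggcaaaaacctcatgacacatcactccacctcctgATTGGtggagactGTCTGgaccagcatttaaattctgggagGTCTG
Thbs2: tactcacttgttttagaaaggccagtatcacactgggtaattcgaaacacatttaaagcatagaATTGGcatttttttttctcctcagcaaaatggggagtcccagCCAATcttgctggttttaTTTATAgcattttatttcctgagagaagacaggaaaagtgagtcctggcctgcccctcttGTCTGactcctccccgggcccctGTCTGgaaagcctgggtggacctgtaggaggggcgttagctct
TATAAA, the letters of the TATA box core, was somewhere in all 4 windows, against 12.4% of the 32851 promoter windows of this length. Its first base lay 26 bases before the start in Postn, 126 in Tnc, 126 in Thbs2 (where it reads TTTATA) and 211 in Spp1. Only the Postn match thus lay close to the start, and whether any of these matches works as a TATA box was not tested. CCAAT, the CCAAT box, was in Spp1 (1 match) and Thbs2 (2 matches), against 33.8% of all windows, and GGGCGG, the GC box, was in Tnc, against 32.7%. CAGAC, an element bound by SMAD proteins, had 2 matches each in Spp1 and Thbs2, against 42.2% of windows. TGANTCA, an AP-1 site, and GGAATG, the core bound by TEAD proteins, are in 6.75% and 12.6% of all windows, and these letters are in none of the 4. None of these matches overlapped another. Promoter sequences of Fn1, Thbs1, Sparc and Eln are not shown here.

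Together the 8 genes took 1.60% of all counts, between 1.10% and 2.30% per library. Compared per length, as TMM-scaled RPKM, which divides the read count by library size and exon length (mean ± SD, n = 24), Sparc was the most abundant at 1186 ± 161 RPKM, followed by Postn at 501 ± 111. Fn1 at 246 ± 87.1 and Thbs2 at 234 ± 47.5 RPKM came next, then Tnc at 196 ± 90.8 and Spp1 at 172 ± 77.9. Thbs1 at 79.6 ± 50.6 and Eln at 29.1 ± 8.95 RPKM were lowest. The first steps of this order held in every library, with Sparc above Postn and Postn above Fn1 in 24 of 24. Neighbours in the middle did not separate: Fn1 exceeded Thbs2 in 8 libraries, Thbs2 exceeded Tnc in 16, and Tnc exceeded Spp1 in 13. At the lower end Spp1 exceeded Thbs1 in 21 and Thbs1 exceeded Eln in 22 of 24 libraries. Elastin, the structural component of the set, thus had the lowest mean RPKM in these day 10 wounds. The exon length used joins all annotated exons of a gene, 8098 bases for Eln and 6073 for Thbs1. It can exceed the length of the transcripts present, and its part in this order was not tested.

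The members differed widely in how far they varied from wound to wound. The ratio of the highest to the lowest library, on CPM (counts scaled by library size with TMM factors), was 1.76 for Sparc, 2.07 for Thbs2, 2.55 for Postn, 3.05 for Eln and 3.38 for Fn1. It was 5.78 for Tnc, 8.09 for Thbs1 and 8.47 for Spp1. By the SD of log2 CPM over the 24 libraries, Sparc stood at the 35.8th percentile of 18244 genes with a mean log2 CPM of at least 0, while Tnc, Spp1 and Thbs1 stood at the 94.5th, 97.4th and 97.9th. Sparc and Postn, the most abundant members, were thus among the 3 steadiest, and Tnc, Spp1 and Thbs1 were among the most variable genes of the tissue. Group means accounted for 7.85% of the variance of log2 CPM of Thbs1 and 26.5% of that of Fn1, the extremes of the set, and the median of the 18244 genes was 16.3%.

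**Figure D1:**
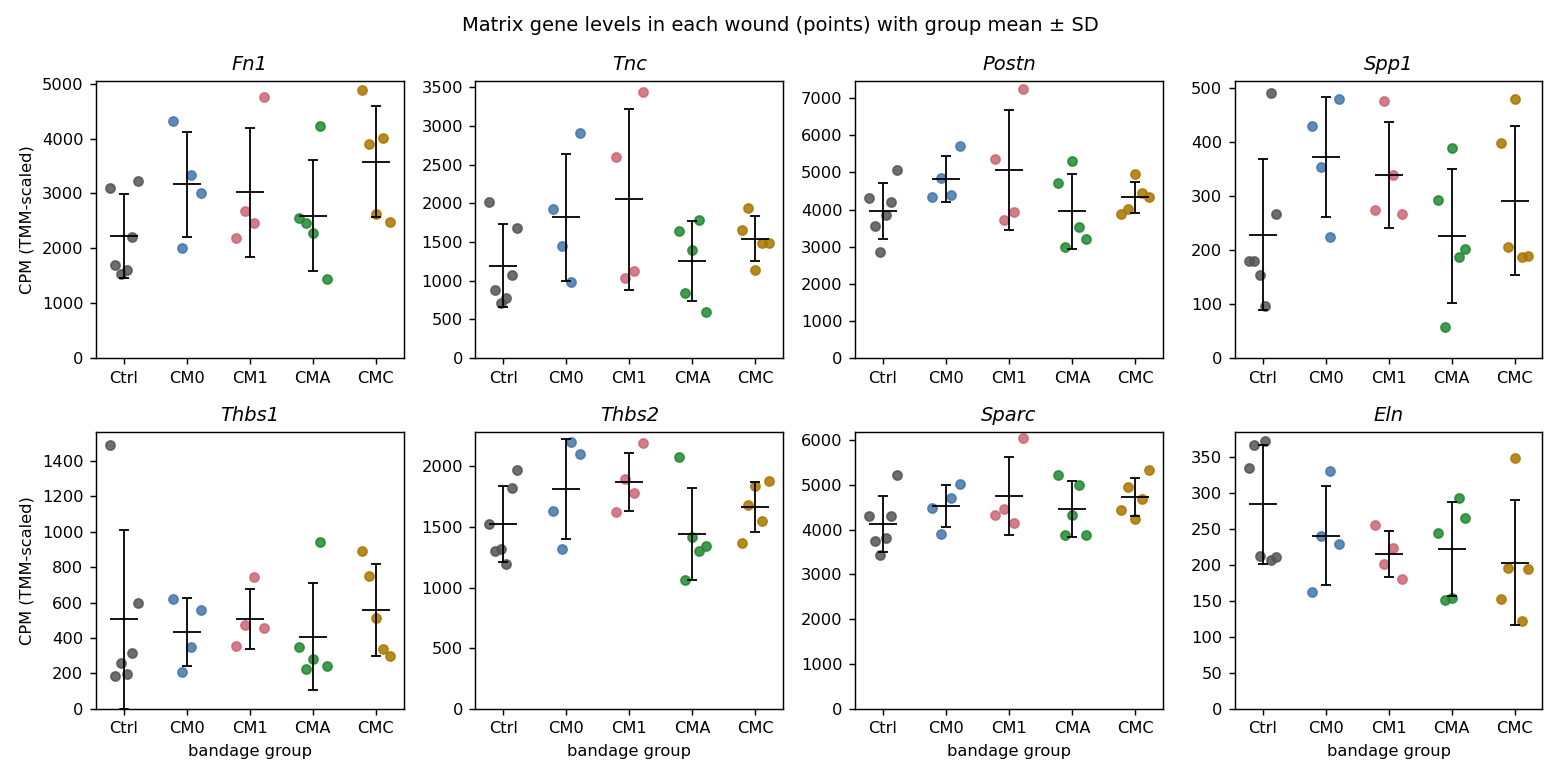
Level of each member in every library, in CPM on a linear axis from 0, by group; points are libraries, and black bars are group means with whiskers of 1 SD. Sparc spans 1.76-fold and Spp1 8.47-fold, Ctrl 1 stands alone at 1490 CPM in the Thbs1 panel, and in every panel the range of Ctrl overlaps that of each medium.

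The design asks whether bandages with macrophage media altered the wounds relative to control bandages. None of the 8 members passed the test in any comparison: edgeR's quasi-likelihood test called 0 members and 0 of 18978 genes (0%) at a Benjamini-Hochberg adjusted p under 0.05 in CM0, CM1, CMA and CMC against Ctrl, in the mean of the media against Ctrl, in the 6 comparisons between media and in the test of any difference among the groups. At an unadjusted p under 0.05, 1 member passed in CMC against Ctrl, where 8.51% of all genes did, and 0 members passed in CM0 (4.88% of genes), CM1 (7.1%), CMA (6.66%) and the mean of the media (9.49%). Between media the members counted the same way were 1 in CM1 against CMA (4.08% of genes) and 0 in CM1 against CM0 (2.22%), CMA against CM0 (3.2%), CMC against CM0 (3.7%), CM1 against CMC (2.71%) and CMA against CMC (6.29%), and 0 in the test of any difference (4.65%). Without CM0 2 edgeR called 1 gene in CM0 against Ctrl, and without Ctrl 2 it called 5 in the mean of the media, none of them a member. DESeq2 called 1, 1, 0 and 4 genes in CM0, CM1, CMA and CMC against Ctrl, 1 in the mean of the media and 1 in the test of any difference, none of them a member, and limma called 0 in each. The ranges of CPM overlapped between groups for all 8 members in all 10 pairs of groups. Ranges that do not overlap were found in 0.822% of genes for CM0 against Ctrl, 1.14% for CM1, 0.358% for CMA and 0.532% for CMC. Between media their share was 2.0% for CM1 against CM0, 0.922% for CMA against CM0, 1.78% for CMC against CM0, 1.01% for CM1 against CMA, 1.05% for CM1 against CMC and 1.02% for CMA against CMC. In the test of any difference the smallest unadjusted p of a member was that of Fn1, 0.175 (edgeR adjusted p = 0.926). In bulk tissue, fewer cells of a type and less RNA per cell cannot be told apart.

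Some libraries held extreme marker levels. Ctrl 3 had the highest summed level of the hair follicle list, 8083 CPM, against a median of 33.8 CPM over libraries, and Ctrl 4 the highest of the skeletal muscle list, 29236 CPM against a median of 11548. In the muscle list Ctrl 2 followed at 27782 CPM and a CM0 library reached 26236, so that Ctrl 4 did not stand alone. CM1 3 had the highest summed level of the neutrophil list, 597 CPM against a median of 189. It did not stand alone either, since CM1 1 followed at 482 CPM and libraries of CMA and CM0 reached 470.1 and 448. Ctrl 3 also held the lowest Sparc and Postn of all libraries and the lowest Fn1, Tnc and fibroblast list of the Ctrl group. Differences from Ctrl are therefore given also without these 3 libraries, and the part of hair, muscle or neutrophil RNA in them was not tested.

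Fn1 encodes fibronectin, the main adhesive protein of the provisional matrix. Ctrl libraries ranged from 1524 to 3234 CPM with a median of 1950. In CMC the libraries stood at 4877, 3911, 2624, 4007 and 2478 CPM, in CM0 at 4319, 2002, 3333 and 3002, in CM1 at 2188, 2689, 2462 and 4754, and in CMA at 2561, 2454, 2287, 4229 and 1441. All media libraries but CMA 5 lay above the Ctrl median (17 of 18), and 7 of 18 lay above the highest Ctrl library, 3 of them in CMC. The log2 difference from Ctrl was 0.68 in CMC (SE 0.28, 95% interval 0.11 to 1.26, edgeR adjusted p = 0.556), a ratio of 1.61, with an unadjusted p of 0.0226. It was 0.51 in CM0 (0.32 without CM0 1), 0.44 in CM1 (0.14 without CM1 4) and 0.22 in CMA (-0.0285 without CMA 4), and 0.46 in the mean of the media (SE 0.22, edgeR adjusted p = 0.53). Without Ctrl 3, Ctrl 4 and CM1 3 the mean of the media was 0.28, with 0.48 for CMC, 0.02 for CMA, 0.32 for CM1 and 0.30 for CM0.

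Tnc encodes tenascin-C, a large glycoprotein that weakens cell adhesion to fibronectin and is made at wound edges. Ctrl libraries ranged from 713 to 2020 CPM with a median of 980. CM0 libraries stood at 1931, 1453, 989 and 2907 CPM, CM1 libraries at 2601, 1038, 1126 and 3437, CMA libraries at 1640, 845, 1396, 1789 and 594, and CMC libraries at 1655, 1939, 1140, 1488 and 1485. The CM1 libraries formed a high pair and a low pair, with no library between 1126 and 2601 CPM. On the log2 scale Tnc differed from Ctrl by 0.78 in CM1 (SE 0.38, 95% interval -0.0045 to 1.57, edgeR adjusted p = 0.697), 0.61 in CM0, 0.37 in CMC and 0.07 in CMA. Without CM1 4 the CM1 value was 0.42, without CM0 4 the CM0 value was 0.29, and without Ctrl 3, Ctrl 4 and CM1 3 the values were 0.12 in CMC, -0.18 in CMA, 0.73 in CM1 and 0.36 in CM0.

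Postn encodes periostin, which links fibronectin, tenascin-C and collagen. Its Ctrl libraries ranged from 2843 to 5073 CPM with a median of 4022, and 11 of 18 media libraries lay above that median. Mean levels (± SD) were 3970 ± 754 CPM in Ctrl and 3948 ± 1011 in CMA, and higher at 4327 ± 418 in CMC, 4821 ± 628 in CM0 and 5062 ± 1622 in CM1. The SD of CM1 rests on CM1 4, at 7238 CPM the highest of all libraries. Its log2 difference from Ctrl was 0.35 in CM1 (SE 0.19, edgeR adjusted p = 0.714), 0.28 in CM0, 0.12 in CMC and -0.01 in CMA, and without CM1 4 the CM1 value was 0.14. Without Ctrl 3, Ctrl 4 and CM1 3 the values were 0.34 in CM1, 0.17 in CM0, 0.01 in CMC and -0.12 in CMA.

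Sparc encodes osteonectin, a collagen-binding protein of fibroblasts, and had the narrowest range of the set. Ctrl libraries ranged from 3430 to 5208 CPM with a median of 4052, and media libraries from 3876 to 6053. Differences from Ctrl on the log2 scale were small, 0.19 in CMC, 0.11 in CMA, 0.20 in CM1, 0.13 in CM0 and 0.16 in the mean of the media (95% interval -0.04 to 0.36, edgeR adjusted p = 0.599). That interval, as a ratio 0.973 to 1.28, is the narrowest of the 8 members. Without CM1 4 the CM1 value was 0.07, and without Ctrl 3, Ctrl 4 and CM1 3 the values were 0.10 in CMC, 0.02 in CMA, 0.17 in CM1 and 0.05 in CM0.

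Spp1 encodes osteopontin, a phosphorylated ligand of integrins and CD44 that macrophages make in wounds. Ctrl libraries ranged from 97.3 to 491 CPM with a median of 180.0, the highest being Ctrl 5. CM0 libraries stood at 429, 355, 225 and 480 CPM, CM1 libraries at 275, 477, 339 and 266, CMA libraries at 292, 58.1, 389, 188 and 201, and CMC libraries at 398, 206, 479, 187 and 189. All media libraries but CMA 2 lay above the Ctrl median (17 of 18), and 0 of 18 lay above the highest Ctrl library. Spp1 differed from Ctrl on the log2 scale by 0.71 in CM0 (SE 0.43, edgeR adjusted p = 0.939), 0.57 in CM1, 0.35 in CMC and -0.02 in CMA. Without Ctrl 5 these were 1.08, 0.95, 0.73 and 0.36. Leaving out 1 media library moved them the other way, to 0.36 in CM1 without CM1 2, 0.10 in CMC without CMC 3 and -0.31 in CMA without CMA 3, and without Ctrl 3, Ctrl 4 and CM1 3 they were 0.41, 0.28, 0.06 and -0.31.

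Thbs1 encodes thrombospondin-1, an inhibitor of vessel growth and an activator of latent TGF-beta that is stored in platelets. Ctrl 1 stood at 1490 CPM, and the other Ctrl libraries at 184, 259, 197, 312 and 595. CM0 libraries stood at 619, 208, 348 and 557 CPM, CM1 libraries at 352, 470, 746 and 453, CMA libraries at 348, 223, 281, 940 and 240, and CMC libraries at 890, 752, 511, 335 and 296. No media library reached Ctrl 1, while 14 of 18 lay above the Ctrl median of 286 CPM. The log2 difference from Ctrl therefore depended on 1 library: in the mean of the media it was -0.10 (SE 0.40, edgeR adjusted p = 0.95) with Ctrl 1 and 0.61 without it. Without Ctrl 1 it went from -0.23 to 0.49 in CM0, from -0.0023 to 0.71 in CM1, from -0.32 to 0.40 in CMA and from 0.14 to 0.85 in CMC, and no value passed the test. Without Ctrl 3, Ctrl 4 and CM1 3 instead, all values were negative, -0.22 in CMC, -0.67 in CMA, -0.61 in CM1 and -0.58 in CM0.

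Thbs2 encodes thrombospondin-2, an inhibitor of vessel growth made by fibroblasts that affects collagen fibril assembly. Ctrl libraries ranged from 1198 to 1971 CPM with a median of 1419. Mean levels (± SD) were lowest in CMA at 1442 ± 380 CPM and in Ctrl at 1522 ± 313, followed by CMC at 1664 ± 209, CM0 at 1813 ± 414 and CM1 at 1872 ± 241. The log2 difference from Ctrl was 0.30 in CM1 (SE 0.17, edgeR adjusted p = 0.719), 0.25 in CM0, 0.13 in CMC and -0.08 in CMA, and without Ctrl 3, Ctrl 4 and CM1 3 it was 0.20, 0.13, 0.0045 and -0.20 in that order. Between media, Thbs2 stood 0.38 higher in CM1 than in CMA on the log2 scale (unadjusted p = 0.0492, edgeR adjusted p = 0.992), where 4.08% of all genes had an unadjusted p under 0.05. It was the only member under that p in the comparisons between media.

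Eln encodes tropoelastin, the precursor of elastin, and lay on the other side of Ctrl. Ctrl libraries ranged from 207 to 372 CPM with a median of 274, and 3 of them stood above 330 CPM. CM0 libraries stood at 163, 241, 330 and 229 CPM, CM1 libraries at 255, 201, 223 and 181, CMA libraries at 245, 151, 154, 293 and 266, and CMC libraries at 153, 196, 349, 122 and 194. All but CM0 3, CMA 4 and CMC 3 lay below the Ctrl median (15 of 18), and 9 of 18 lay below the lowest Ctrl library. Its log2 difference from Ctrl was -0.48 in CMC (SE 0.25, edgeR adjusted p = 0.616), -0.36 in CMA, -0.40 in CM1 and -0.24 in CM0, and -0.37 in the mean of the media (SE 0.19, 95% interval -0.77 to 0.03, edgeR adjusted p = 0.552). Its sign was negative under all alternatives run, and the CMC value was -0.77 without CMC 3 and -0.35 without CMC 4. In CM0 it was -0.43 without CM0 3 and -0.0895 without CM0 1. Without Ctrl 3, Ctrl 4 and CM1 3 the values were -0.46 in CMC, -0.33 in CMA, -0.40 in CM1 and -0.22 in CM0. The comparisons with Ctrl share the same 6 Ctrl libraries, so that their common sign is not repeated evidence.

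**Figure D2:**
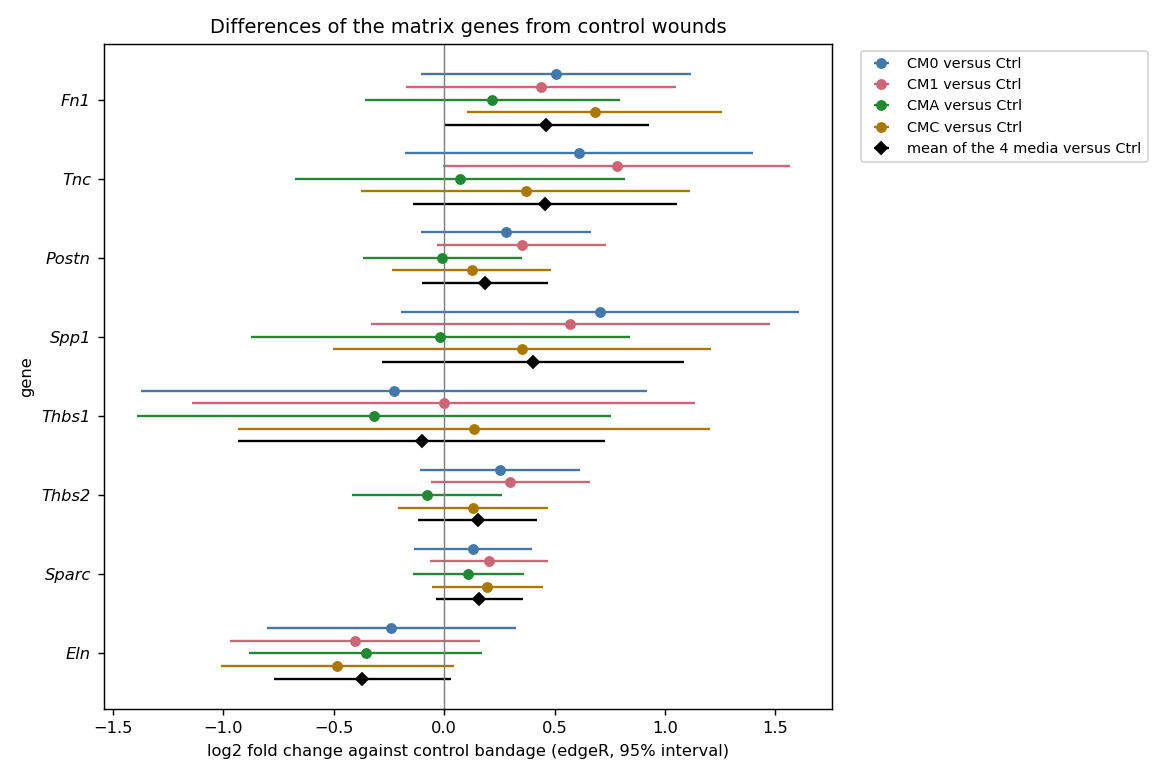
Log2 difference of each member from Ctrl in each medium and in the mean of the media; points are edgeR estimates and bars are 95% intervals. The interval of Fn1 in CMC, 0.11 to 1.26, is the only one that lies wholly on one side of 0, the points of Eln are all below 0, and the intervals of Thbs1 are the widest.

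Counted over the set, 6 of 8 members had a positive log2 difference in CM0 (median 0.27), 6 in CM1 (median 0.32), 3 in CMA (median -0.01) and 7 in CMC (median 0.17). The medians of all genes tested were -0.02, -0.01, -0.02 and -0.01 in the same order. Of these 18978 genes, 8704, 9011, 8455 and 9154 had a positive log2 difference. CMA was also the medium in which all 8 members stood below CM0, by a median of -0.29 on the log2 scale, with a smallest edgeR adjusted p of 0.9999. In that comparison 9413 of 18978 genes stood below CM0. These counts describe the libraries, since the members share them and none passed the test.

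Several members varied together from wound to wound. Of the 28 pairs, 12 had a Pearson correlation of log2 CPM with an adjusted p under 0.05, all of them positive. The p-values come from a permutation test (two-sided, 100000 resamples, Benjamini-Hochberg over the 28 pairs). The share of correlated pairs among all genes tested was not computed, so this count is not shown to be particular to the set. Tnc and Postn had r = 0.77 (permutation p = 3e-05, adjusted 0.00042) and Spearman's rho = 0.65 (permutation p = 0.00096, adjusted 0.00384). That r was 0.66 without the 2 libraries farthest from the median of Tnc and 0.71 with group means removed. Tnc and Sparc had r = 0.74 (permutation p = 3e-05, adjusted 0.00042) and rho = 0.71 (permutation p = 0.00013, adjusted 0.00098), with r = 0.65 without the 2 farthest libraries and 0.72 with group means removed. Thbs2 and Sparc had r = 0.72 (permutation p = 0.00011, adjusted 0.00077) and rho = 0.73 (permutation p = 0.00014, adjusted 0.00098), with r = 0.68 and 0.75 by the same checks.

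Fn1 correlated with 3 members, Sparc, Thbs1 and Tnc. With Sparc it had r = 0.72 (permutation p = 7e-05, adjusted 0.000653) and rho = 0.72 (permutation p = 0.00013, adjusted 0.00098), and r was 0.72 without the 2 farthest libraries and 0.67 with group means removed. With Thbs1 it had r = 0.70 (permutation p = 0.00016, adjusted 0.000896) and rho = 0.75 (permutation p = 4e-05, adjusted 0.00098), and r was 0.70 and 0.71 by the same checks. Spp1 correlated with Thbs2 (r = 0.58, permutation p = 0.00306, adjusted 0.00952; rho = 0.55, permutation p = 0.00587, adjusted 0.0164) and with Postn (r = 0.51, permutation p = 0.0105, adjusted 0.0267; rho = 0.50, permutation p = 0.013, adjusted 0.0304). For Spp1 and Thbs2, r was 0.33 without the 2 libraries farthest from the median of Spp1, so that this relation rests on those libraries in part. With group means removed that r was 0.45. For Spp1 and Postn, r was 0.57 without the 2 libraries farthest from the median of Postn and 0.37 with group means removed. Eln had 0 partners at an adjusted p under 0.05, and its largest r in size was -0.41 with Fn1 (permutation p = 0.0448, adjusted 0.0897; rho = -0.39, permutation p = 0.0579, adjusted 0.108). With group means removed, 9 of the 28 pairs had an adjusted p under 0.05, and without Ctrl 3, Ctrl 4 and CM1 3 also 9. The labels give no batch within which the relations could be computed again.

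**Figure D3:**
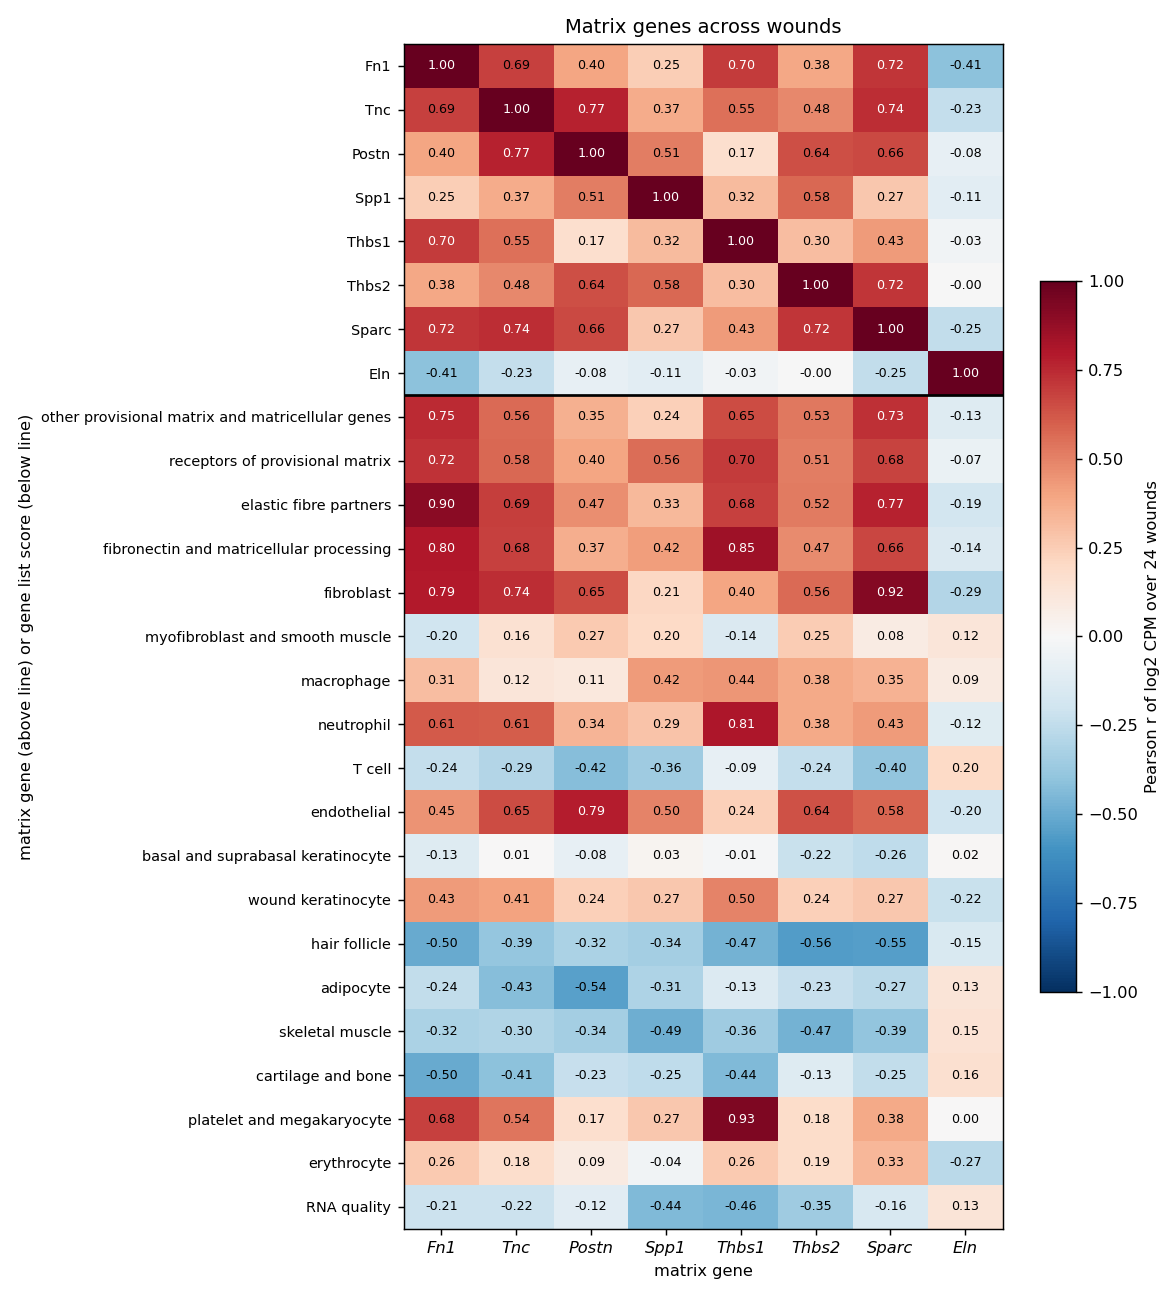
Pearson correlation over 24 libraries of each member's log2 CPM with the other members and with the scores of the 19 gene lists; colour and printed values give r from -1 to 1. Tnc and Postn share 0.77, Sparc reaches 0.92 with the fibroblast list and Thbs1 0.93 with the platelet list, while Eln has no r beyond -0.41.

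Each member was also set against the mean log2 CPM of 4 pathway lists and 15 lists of cell types and RNA quality. Of these 152 relations, 42 had an adjusted p under 0.05 by the same permutation test. The share for genes outside the set was not computed here either. Among these, r was negative for the hair follicle list with Thbs2 (-0.56, adjusted permutation p = 0.0198), Sparc (-0.55, 0.0233) and Fn1 (-0.50, 0.0443). It was also negative for cartilage and bone with Fn1 (-0.50, 0.046) and adipocyte with Postn (-0.54, 0.0278). By rho the smallest adjusted permutation p of these negative relations was 0.0854. Sparc followed the fibroblast list, which holds fibrillar collagen and fibroblast receptor genes, with r = 0.92 (permutation p = 1e-05, the smallest that these permutations can give, adjusted 0.000217) and rho = 0.90 (permutation p = 1e-05, adjusted 0.000253). That r was 0.86 without the 2 farthest libraries and 0.91 with group means removed. Fn1 followed the same list with r = 0.79 (permutation p = 1e-05, adjusted 0.000217) and rho = 0.81 (permutation p = 1e-05, adjusted 0.000253). Tnc (r = 0.74, adjusted permutation p = 0.00076), Postn (0.65, 0.00443) and Thbs2 (0.56, 0.0196) were correlated with it as well. Without the 2 farthest libraries their r were 0.63, 0.36 and 0.51. By rho the adjusted permutation p was 0.00168 for Tnc, 0.0671 for Postn and 0.0516 for Thbs2. All 10 fibroblast markers were tested and none was at 0, and their summed level ranged from 62503 to 89094 CPM in Ctrl and from 75258 to 84434 in CMC, 66426 to 95376 in CMA, 64587 to 119770 in CM1 and 65923 to 87149 in CM0. Ctrl 3 was lowest and CM1 4 highest for this list, as for Sparc. The part of fibroblasts in the values of Sparc, Fn1, Tnc, Postn and Thbs2 was not tested.

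Postn had its highest list correlation with the endothelial list, r = 0.79 (permutation p = 1e-05, adjusted 0.000217) and rho = 0.72 (permutation p = 5e-05, adjusted 0.000507), and r was 0.66 without the 2 farthest libraries and 0.73 with group means removed. The relation was shared by Tnc (r = 0.65, adjusted permutation p = 0.00373), Thbs2 (0.64, 0.00443), Sparc (0.58, 0.0142) and Spp1 (0.50, 0.0497). By rho the adjusted permutation p of Sparc was 0.0671. All 8 endothelial markers were tested and none was at 0, with summed levels of 324 to 627 CPM in Ctrl, 414 to 562 in CMC, 370.1 to 522 in CMA, 497 to 705 in CM1 and 463 to 638 in CM0. CM1 4 was highest and Ctrl 3 lowest for Postn and for this list alike. The part of vessels in the values of Postn, Tnc, Thbs2, Sparc and Spp1 was not tested.

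Thbs1 was correlated with the platelet and neutrophil lists, as were Fn1 and Tnc. For Fn1 and Tnc these r were lower than those with the fibroblast list, 0.79 and 0.74. Thbs1 was correlated with the 4 pathway lists as well. Its r with fibronectin and matricellular processing was 0.85 (adjusted permutation p = 0.000217) and rho 0.92 (adjusted 0.000253), above those with the neutrophil list. With receptors, elastic fibre partners and other provisional matrix genes r was 0.70, 0.68 and 0.65 (adjusted permutation p = 0.00236, 0.00236 and 0.00369). With the platelet and megakaryocyte list Thbs1 had r = 0.93 (permutation p = 1e-05, adjusted 0.000217) and rho = 0.93 (permutation p = 1e-05, adjusted 0.000253). That r was 0.89 without the 2 farthest libraries and 0.93 with group means removed. Only 3 of the 5 entries of that list were tested, Pf4, Itga2b and Ppbp, since Gp9 and Gp1bb, which are more specific to platelets, had 50 and 22 counts over all libraries. Its summed level was 43.4 to 141 CPM in Ctrl, 48.2 to 128 in CMC, 32.6 to 112 in CMA, 68.7 to 104 in CM1 and 49.95 to 90.2 in CM0, highest in Ctrl 1. With the neutrophil list Thbs1 had r = 0.81 (permutation p = 2e-05, adjusted 0.000304) and rho = 0.83 (permutation p = 2e-05, adjusted 0.00038), and 7 of its 8 entries were tested, Ly6g having 13 counts over all libraries. That list ranged from 35.8 to 310.3 CPM in Ctrl, 74.5 to 376 in CMC, 51.7 to 470.1 in CMA, 161 to 597 in CM1 and 26.7 to 448 in CM0. Its entry S100a8 is shared with the wound keratinocyte list. With the latter Thbs1 had r = 0.50 (permutation p = 0.0137, adjusted 0.0497) and rho = 0.51 (permutation p = 0.0129, adjusted 0.0544). Fn1 had r = 0.68 with the platelet list (permutation p = 0.00024, adjusted 0.00236; rho = 0.77, permutation p = 3e-05, adjusted 0.000415) and r = 0.61 with the neutrophil list (permutation p = 0.00152, adjusted 0.00924; rho = 0.62, permutation p = 0.00144, adjusted 0.00876). Tnc had r = 0.54 with the platelet list (permutation p = 0.00645, adjusted 0.028; rho = 0.69, permutation p = 0.00031, adjusted 0.00236) and r = 0.61 with the neutrophil list (permutation p = 0.00182, adjusted 0.0106; rho = 0.67, permutation p = 0.00042, adjusted 0.00304). Without the 2 farthest libraries these r were 0.61 and 0.55 for Fn1 and 0.51 and 0.54 for Tnc. The part of these cells in the levels of Thbs1, Fn1 and Tnc was not tested.

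For each member the 3 genes whose log2 CPM was most like it over the 24 libraries were taken from 18236 candidates, as a description by Pearson's r, with libraries shared by all points. For Fn1 they were Sdk1, a cell adhesion molecule (r = 0.94), Sulf1, a heparan sulfate sulfatase (0.92), and Spsb1 (0.91). For Tnc they were Angptl2, a secreted angiopoietin-like protein (0.95), Loxl2, a collagen cross-linking enzyme (0.90), and Tes (0.90). For Postn they were Zfp9 (0.88), the transcriptional regulator Mecom (0.88) and Olfml2b (0.87). For Thbs2 they were Tbc1d2b (0.89), the matricellular gene Ccn4 (0.87) and Sulf2, another heparan sulfate sulfatase (0.85). For Sparc they were the transporter Slc38a10 (0.92), Col5a2, a chain of type V collagen (0.92), and C1qtnf6 (0.91).

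Among the genes most like Thbs1 were Ppbp, a platelet chemokine gene (r = 0.93), and Cxcl3, a chemokine that attracts neutrophils (0.92). Ppbp is itself a tested gene of the platelet list, so its r and that of the list are not separate observations. In Ctrl, Cxcl3 ranged from 0 to 55.0 CPM with a median of 0.163, and Ppbp from 0.409 to 28.7 with a median of 0.54. Spp1 had lower values, with the ubiquitin ligase Trip12 (0.77), the transporter Abcc3 (0.76) and the lipase Pla2g7 (0.76), for which r was 0.63, 0.59 and 0.58 without the 2 farthest libraries. Eln had the lowest best match of the set, Mfap4, a microfibril-associated protein that binds elastin (0.74), followed by Cilp, a matrix protein (0.70), and Pdgfrl (0.68). Mfap4 stood at 224 ± 28.2 CPM in Ctrl and 183 ± 41.8 in CMC (SD), a log2 difference of -0.29 (SE 0.13, edgeR adjusted p = 0.578).

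**Figure D4:**
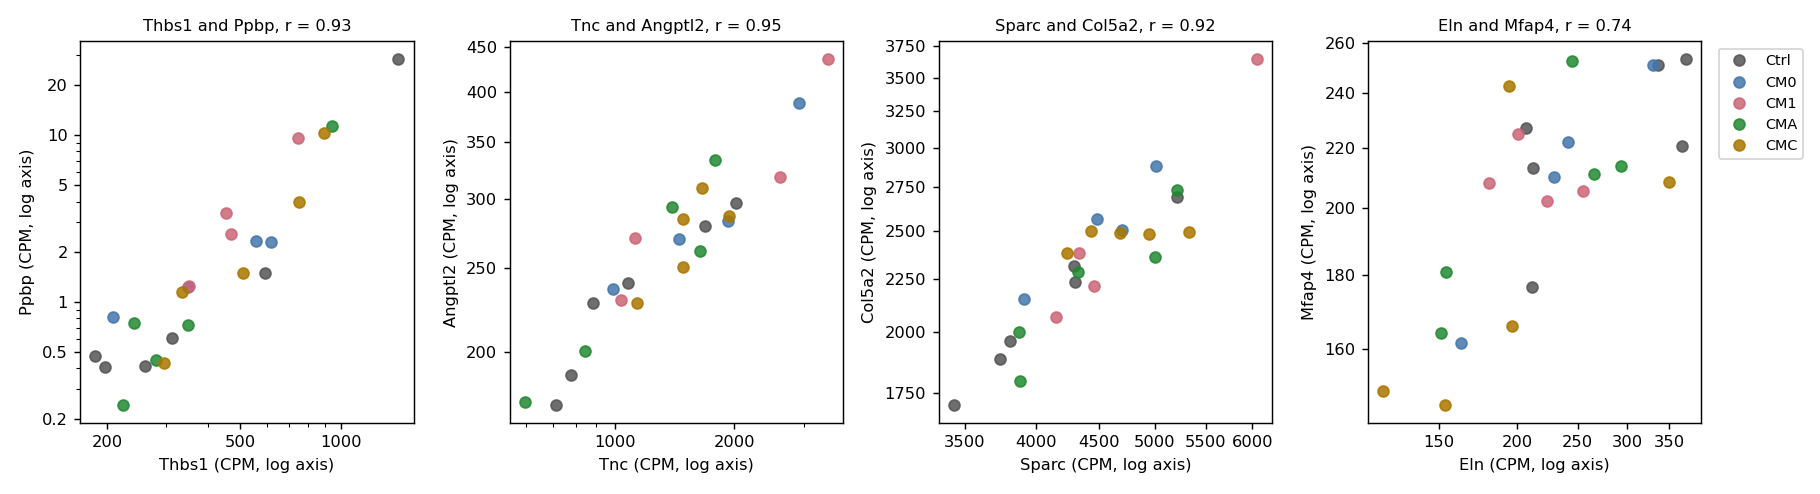
Level of 4 members against 1 of the 3 genes most like each, in CPM on log axes, with 1 point per library coloured by group. Points of the 5 groups are mixed in each panel, and Eln against Mfap4 (r = 0.74) is more scattered than Tnc against Angptl2 (r = 0.95).

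The wider pathway was read from 4 lists. Of all 18978 genes tested, 8704, 9011, 8455 and 9154 had positive log2 differences in CM0, CM1, CMA and CMC against Ctrl. Genes of a list share the same libraries and the comparisons share Ctrl, so the counts of signs below describe the libraries. Of the other provisional matrix and matricellular genes 21 of 24 were tested, and the untested 3 were Fga, Fgb and Fgg, the fibrinogen chains made in liver, with 0 counts in all 24 libraries. Of these 21 genes 16, 17, 13 and 18 had positive log2 differences in CM0, CM1, CMA and CMC against Ctrl, with medians of 0.17, 0.27, 0.03 and 0.17, and 0 passed edgeR's test in either direction. Ccn2, a connective tissue growth factor gene, had the smallest p of the list in the test of any difference (unadjusted p = 0.000789, edgeR adjusted p = 0.926). Its Ctrl libraries ranged from 16.9 to 40.6 CPM with a median of 21.4, and its CMC libraries stood at 62.9, 58.5, 80.4, 31.7 and 57.4 CPM. All CMC libraries but CMC 4 lay above the highest Ctrl library. The log2 difference was 1.203 (SE 0.26, edgeR adjusted p = 0.404), and DESeq2 called it at 1.21 with an adjusted p of 0.0306. Fbln1, encoding fibulin-1, which binds fibronectin, stood at 84.5 ± 5.77 CPM in Ctrl and 109 ± 3.76 in CM1 (log2 difference 0.36, SE 0.12, edgeR adjusted p = 0.697).

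All 16 receptors of the provisional matrix, which include integrins, syndecans, scavenger receptors and the surface proteins Cd44 and Cd47, were tested and 0 passed in either direction, with 10, 11, 8 and 11 positive log2 differences and medians of 0.05, 0.11, 0.01 and 0.08 in CM0, CM1, CMA and CMC. Itgb5, an integrin chain that pairs with Itgav to bind vitronectin, stood at 240 ± 21.5 CPM in Ctrl and 279 ± 29.8 in CM0. Itgb6, the epithelial integrin chain that activates latent TGF-beta, stood at 19.3 ± 5.66 CPM in Ctrl and 13.4 ± 1.98 in CM1 (log2 difference -0.52, SE 0.20, edgeR adjusted p = 0.697).

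The 16 elastic fibre partners were all tested, 0 passed in either direction, and 14, 14, 10 and 12 had positive log2 differences, with medians of 0.30, 0.30, 0.06 and 0.20. Their differences thus mostly had the opposite sign to Eln, which was negative in each medium. Fbn2, a fibrillin of developing elastic fibres, stood at 271 ± 32.7 CPM in Ctrl, 332 ± 29.6 in CM0 and 214 ± 48.2 in CMC. Fbln5, fibulin-5, which brings elastin to microfibrils, stood at 63.1 ± 5.55 CPM in Ctrl and 77.8 ± 10.1 in CM0 (log2 difference 0.30, SE 0.10, edgeR adjusted p = 0.939). Across libraries this list's score followed Fn1, with r = 0.90 (permutation p = 1e-05, adjusted 0.000217) and rho = 0.90 (permutation p = 1e-05, adjusted 0.000253), and r was 0.88 without the 2 farthest libraries and 0.90 with group means removed. Its summed level was 4246 to 6715 CPM in Ctrl, 5113 to 7299.8 in CMC, 4137 to 7100.1 in CMA, 5241 to 9085 in CM1 and 4933 to 7398 in CM0.

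Of the 15 genes of fibronectin and matricellular processing, which act on matrix proteins outside the cell or modify them, all were tested and 0 passed in either direction. Positive log2 differences were found for 7, 11, 9 and 14 of them, with medians of -0.01, 0.19, 0.04 and 0.19. Adamts1, a protease that cleaves versican, stood at 112 ± 6.80 CPM in Ctrl and 142 ± 13.6 in CMC (log2 difference 0.33, SE 0.13, edgeR adjusted p = 0.549). Cela1, an elastase, stood at 6.30 ± 1.97 CPM in Ctrl and 8.69 ± 2.10 in CMC (log2 difference 0.46, SE 0.20, edgeR adjusted p = 0.556).

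**Figure D5:**
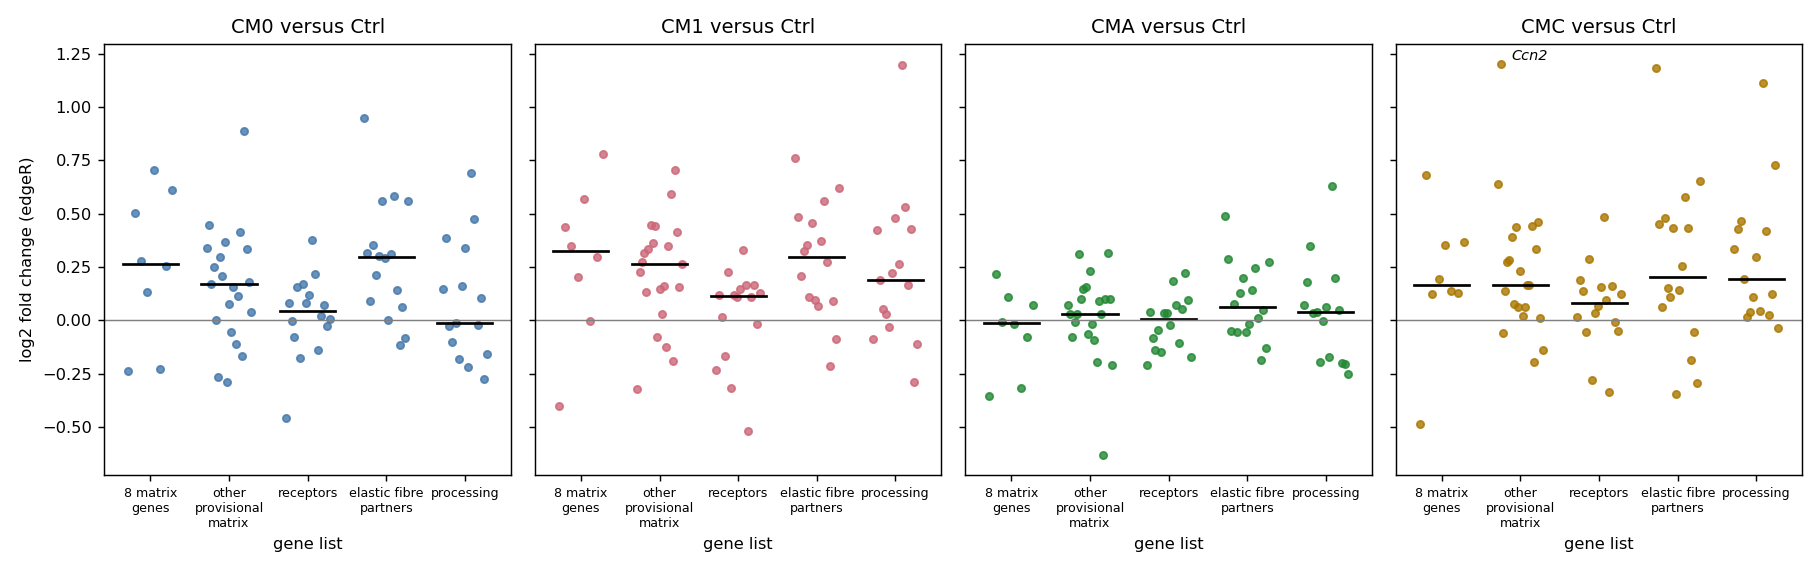
Log2 difference from Ctrl of each tested gene of the set and of the 4 pathway lists, in 1 panel per medium; each point is a gene and bars are medians. The medians of the 8 members are 0.27, 0.32, -0.01 and 0.17 in the panels from left to right, and Ccn2 is marked in the CMC panel at 1.203.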

How the data were processed

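Dorsal wound tissue of 24 mice was sequenced as total RNA after ribosomal RNA removal with Ribo-Zero, with NEBNext Ultra libraries, per the labels' protocols. The values are raw counts per gene that the authors deposited, 1 table for each library. The submitters' processing notes name bcl2fastq 2.17, FastQC, cutadapt, STAR, featureCounts, DESeq2 and the build GRCm38, with no role stated. The authors' annotation is not named in the sources used. Symbols for 54165 of 54232 identifiers and all coordinates come from the GENCODE M21 annotation and gene table of GRCm38.

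Low counts were removed with filterByExpr, library sizes were scaled with TMM, and 1 edgeR quasi-likelihood model (robust, 1 term per group) was fitted to all libraries. Its p-values were adjusted over 18978 genes (Benjamini-Hochberg) and compared with 0.05. CPM and RPKM (union of exons) are TMM-scaled, and log2 CPM used a prior count of 2. Library pairs within a group differed beyond sampling noise (mean chi-square per gene 13.5 to 61.7 in 47 pairs), so none was merged. Depth was 7267879 to 11985292 counts, and the smallest count of a member in a library was 484, for Spp1.

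The members and lists were chosen with earlier results of these data known, so their directions are not independent evidence. Genes named are the 8 members, in each pathway list the 2 genes with the smallest p in the test of any difference and any gene past the threshold, and the 3 genes most like each member. A gene that this rule names for Thbs1 is not reported here. Untested genes, genes at 0 and genes called by DESeq2 were named after their values were seen. The alternatives were RLE factors, library sizes without Gm26917 and mitochondrial genes, no filter, DESeq2, limma with voom and sample weights, only the groups compared, leaving out Ctrl 3, Ctrl 4 and CM1 3, and leaving out each library. The scripts were tested on simulated data. Versions were R 4.3.3, edgeR 4.0.16, limma 3.58.1, DESeq2 1.42.0, Python 3.11.15, scipy 1.17.1, numpy 2.4.6, pandas 2.3.3 and matplotlib 3.10.9.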

Additional observations from a re-analysis of the deposited data

Results flagged for a closer look

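Dixon's 95% limit on the gap of a library to the next, relative to the range of its group, was applied to CPM. It was exceeded in 3 of 40 combinations of member and group, each time by the highest library of the group. Chance marks about 1 in 20 if values are normally distributed, which was not tested for CPM. The limit was not applied to log2 CPM, the scale of the correlations, so these flags hold for CPM only. Thbs1 stood at 1490 CPM in Ctrl 1, with the next Ctrl library at 595. Thbs1 also stood at 940 CPM in CMA 4, with the next CMA library at 348. Sparc stood at 6053 CPM in CM1 4, with the next CM1 library at 4456. Ctrl 1 was also the library with the highest summed platelet and megakaryocyte list, 141 CPM, and CM1 4 that with the highest fibroblast list, 119770 CPM. Their part in these values was not tested.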

How the results depend on the processing

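No member passed the threshold under any alternative (lowest adjusted p 0.299), and of 1232 recomputed log2 differences of members 1192 kept their direction and 40 turned, all from values of 0.32 or less in size. Those of Sparc and Eln turned 0 times. DESeq2 called 1 gene for CM0, 1 for CM1, 4 for CMC, 1 for the mean of the media and 1 for any difference where edgeR called 0, and the cause was not tested. The other whole-set alternatives called 0. Postn in CMA against Ctrl was 0.00122 with library sizes without Gm26917 and mitochondrial genes and 0.00160 with DESeq2. With limma, whose weights can reduce the part of 1 library, Thbs1 was 0.33 in the mean of the media, 0.0684 in CMA, 0.44 in CM1 and 0.29 in CM0. Without Ctrl 3, Ctrl 4 and CM1 3, Tnc in CMA was -0.18 and Thbs1 in CMC -0.22. Leaving out each library in turn, edgeR called 0 to 1 genes for CM0 (1 without CM0 2) and 0 to 5 for the mean of the media (5 without Ctrl 2). Over the same omissions Thbs1 ranged from -0.28 to 0.61 in the mean, -0.11 to 0.85 in CMC, -0.89 to 0.40 in CMA, -0.25 to 0.71 in CM1 and -0.45 to 0.49 in CM0, each upper end without Ctrl 1. In CMA, Fn1 ranged from -0.0285 to 0.38, Tnc from -0.0923 to 0.29, Postn from -0.14 to 0.0822, Spp1 from -0.31 to 0.36 and Thbs2 from -0.24 to 0.0198. The number of correlated member pairs, 12, ranged from 9 to 15 and that of member and list pairs, 42, from 32 to 46. No paired analysis was made because the labels give no batch, litter or pairing.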
